A study of Rattus norvegicus with 9 samples.

Results

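Heat shock proteins and the DnaJ proteins that work with them are the chaperones that keep other proteins folded. They were followed here in the vestibular epithelium of rats exposed to 3,3′-iminodipropionitrile (IDPN), a nitrile that is toxic to the hair cells (HCs) of the inner ear. The genes were chosen by symbol, as the protein-coding Hsp90, Hspa, Hspb, Hspd, Hspe, Hsph, Dnaja, Dnajb and Dnajc genes with at least 10 counts over all libraries. Hspa5 was left out by the rule. This gave 67 genes of the 32883 in the table, and 66 of them were among the 15517 genes with enough counts to be tested. The exception was Hspb9, with 20 counts in all.

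The animals were male Long-Evans rats whose ages are not given in the sources used here. Control rats drank plain water, IDPN-3wk rats drank water with 20 mM IDPN for 3 weeks, and IDPN-7wk rats drank it for 7 weeks. Each group held 3 rats, each library came from the 6 cristae and 2 utricles of 1 rat, and the same 3 Control rats, which the study took at both times, served both comparisons. Which Control rat was taken at which time is not given in the sources used here. Between the exposed groups, length of exposure and time on study differ together and cannot be told apart. Whole epithelium was used, so HCs, supporting cells and remaining nerve and connective tissue were sequenced together, and fewer cells of a type and less RNA per cell cannot be told apart. All libraries carry the same batch label.

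HSP70 proteins (the Hspa genes) bind and release unfolded chains in a cycle driven by ATP. DnaJ proteins, also called HSP40, bring them their clients, and nucleotide exchange factors such as Hsph1 reset them. HSP90 proteins act later, on nearly folded clients, and small heat shock proteins (Hspb) hold unfolding proteins without ATP. In the classical heat shock response, the transcription factor Hsf1 binds heat shock elements, repeats of GAA and TTC units, and switches on inducible members such as Hspa1a, Hsp90aa1, Hspb1 and Dnajb1. Constitutive members such as Hspa8 and Hsp90ab1 are made in unstressed cells, and other members serve the endoplasmic reticulum (ER) or the mitochondria.

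Library totals ran from 31100118 to 46018385 counts, and the chaperone genes took 1.02% to 1.18% of them. The libraries also fell into 2 sets by the number of genes detected. Every IDPN-7wk library was in the set with more genes, so set and group cannot be fully told apart. Drawn down to 31100118 counts each, 15387 to 15498 genes were seen in Control replicate 3 and IDPN-3wk replicates 1 and 2, against 16834 to 17312 in the other 6 libraries. The numbered library names run in sequence within the set with fewer genes, and also within the IDPN-7wk group. What their order stands for is not given in the sources used here. The HC markers were present in every library, with a summed level of 2678 to 3127 CPM (counts scaled to a common library size, normalized by the TMM method) in Control, 1314 to 1670 in IDPN-3wk and 1321 to 1526 in IDPN-7wk. Replicates were distinct libraries, with a chi-square of at least 18.7 per gene between any pair.

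Promoters were read for heat shock elements. The RefSeq promoter windows (assembly GRCr8, 250 bases before to 50 bases after the start) matched 53 of the 67 genes by symbol. The counts were made on another assembly, so the windows serve as sequence only. A 3-unit element was written as GAANNTTC followed by NNGAA, or TTCNNGAA followed by NNTTC, and a 2-unit element as GAANNTTC or TTCNNGAA, on both strands, and each 3-unit element contains a pair of overlapping 2-unit elements. The 3-unit element was found in 5 of the 53 chaperone windows (9.43%) and in 267 of all 33469 windows of the same length (0.798%). The 2-unit element was found in 15 of the 53 (28.3%), against 15.9% of all windows. Hspd1 and Hspe1 hold the same run in overlapping windows, and it is counted for both genes in each of these shares. Among the inducible genes with a window, 5 of 6 held a 2-unit element and 2 of 6 a 3-unit element, and among the constitutive genes the counts were 3 of 8 and 1 of 8. A match describes letters and is not a site of binding.

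A selection of these windows are shown with their matches in capitals. Hspb1 and Hspb8 were upregulated at 7 weeks, Hsph1 was lower at 7 weeks, Hspa8 is the constitutive gene with the most matches, and Hspe1 holds the longest run. Each window is 300 bases, written 5′ to 3′ on the strand of the gene. The windows lie at chr12:26432252-26432551 (minus strand, Hspb1), chr12:45837058-45837357 (plus, Hspb8), chr12:10427118-10427417 (plus, Hsph1), chr8:50080264-50080563 (plus, Hspa8) and chr9:64084077-64084376 (plus, Hspe1).
Hspb1: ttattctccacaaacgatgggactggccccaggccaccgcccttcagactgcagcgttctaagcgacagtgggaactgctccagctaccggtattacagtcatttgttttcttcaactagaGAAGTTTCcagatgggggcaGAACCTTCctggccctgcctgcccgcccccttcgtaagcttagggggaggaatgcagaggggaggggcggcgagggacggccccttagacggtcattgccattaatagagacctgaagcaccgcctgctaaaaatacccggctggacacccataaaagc
Hspb8: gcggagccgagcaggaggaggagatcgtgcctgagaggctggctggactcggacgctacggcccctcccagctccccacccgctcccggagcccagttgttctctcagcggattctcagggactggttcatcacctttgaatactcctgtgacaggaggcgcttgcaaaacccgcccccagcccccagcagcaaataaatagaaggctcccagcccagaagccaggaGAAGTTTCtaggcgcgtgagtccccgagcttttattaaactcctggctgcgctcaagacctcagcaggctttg
Hsph1: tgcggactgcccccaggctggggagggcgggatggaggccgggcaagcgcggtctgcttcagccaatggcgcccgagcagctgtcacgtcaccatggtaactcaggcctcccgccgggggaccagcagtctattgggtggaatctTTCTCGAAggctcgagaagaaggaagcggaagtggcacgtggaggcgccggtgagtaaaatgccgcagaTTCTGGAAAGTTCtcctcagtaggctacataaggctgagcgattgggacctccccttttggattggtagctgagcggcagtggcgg
Hspa8: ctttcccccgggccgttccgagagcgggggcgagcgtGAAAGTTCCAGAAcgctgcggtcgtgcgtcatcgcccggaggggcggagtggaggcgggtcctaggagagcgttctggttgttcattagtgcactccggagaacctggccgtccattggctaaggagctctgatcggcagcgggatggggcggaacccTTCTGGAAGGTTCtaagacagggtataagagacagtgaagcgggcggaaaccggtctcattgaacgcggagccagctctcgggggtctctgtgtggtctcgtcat
Hspe1: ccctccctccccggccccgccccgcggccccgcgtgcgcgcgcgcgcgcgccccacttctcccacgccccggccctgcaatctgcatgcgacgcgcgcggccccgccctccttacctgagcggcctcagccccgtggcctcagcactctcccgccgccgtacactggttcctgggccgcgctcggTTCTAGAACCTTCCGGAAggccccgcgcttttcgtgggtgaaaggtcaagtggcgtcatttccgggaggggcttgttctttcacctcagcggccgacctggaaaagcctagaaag

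In Hspb1, the 2-unit elements began 129 and 109 bases upstream of the start, and in Hspb8 the only one began 23 bases upstream. Hsph1 had a 3-unit element 36 bases upstream and a separate 2-unit element 105 bases upstream. Hspa8 had 3-unit elements at 213 and 55 bases upstream. In Hspe1, overlapping 3-unit elements at 65 and 60 bases upstream formed the run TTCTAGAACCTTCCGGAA, and its window overlapped that of Hspd1, on the opposite strand of chromosome 9, by 211 bases, so both genes share the run. Hspd1 and Hspe1 encode the mitochondrial chaperonin and its lid. The windows of Hspa1a, Hspb7 and Hsp90b1 held no match, which says only that these letters are not in these 300 bases.

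Differences were tested with edgeR over all 15517 genes, and a DEG was a gene whose adjusted p was below 0.05 and whose level changed more than 1.5-fold. Each library is 1 rat, so these p-values measure the spread between rats. After 3 weeks of IDPN, no chaperone gene was a DEG (0 of 66), while 1.65% of all genes were (0.438% upregulated and 1.21% downregulated). In this comparison, 12 chaperone genes had an unadjusted p under 0.05, against 15.8% of all genes, and the smallest adjusted p was 0.126, for Dnajc8. DESeq2, run as an alternative, called 1 chaperone gene, Hspb8, and 5.18% of all genes. The 3 IDPN-3wk rats lay above the 3 Control rats in 5 chaperone genes and below them in 7, against 8.78% and 10.9% of all genes (19.6% together). The median log2 fold change of the 66 genes was 0.00, with 34 higher and 32 lower.

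After 7 weeks, 4 of 66 chaperone genes were DEGs, against 5.13% of all genes. Hspb1 and Hspb8 were upregulated (2.00% of all genes were), and Hspb7 and Hsp90b1 were downregulated (3.13%). Another 4 genes passed the adjusted p but not the fold change, with Dnajc8 higher and Hspa14, Hspa4l and Hsph1 lower. Thus 8 of 66 passed the adjusted p alone, against 6.09% of all genes, and 15 had an unadjusted p under 0.05, against 19.3%. DESeq2 called the same 4 DEGs, with 8.73% of all genes called. Of the 66 genes, 45 were lower and 21 higher than in Control, with a median log2 fold change of -0.17 where that of all genes was 0.01. The 3 exposed rats lay below the Control rats in 15 genes and above them in 7, while 17.1% and 17.2% of all genes did so.

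**Figure D1:**
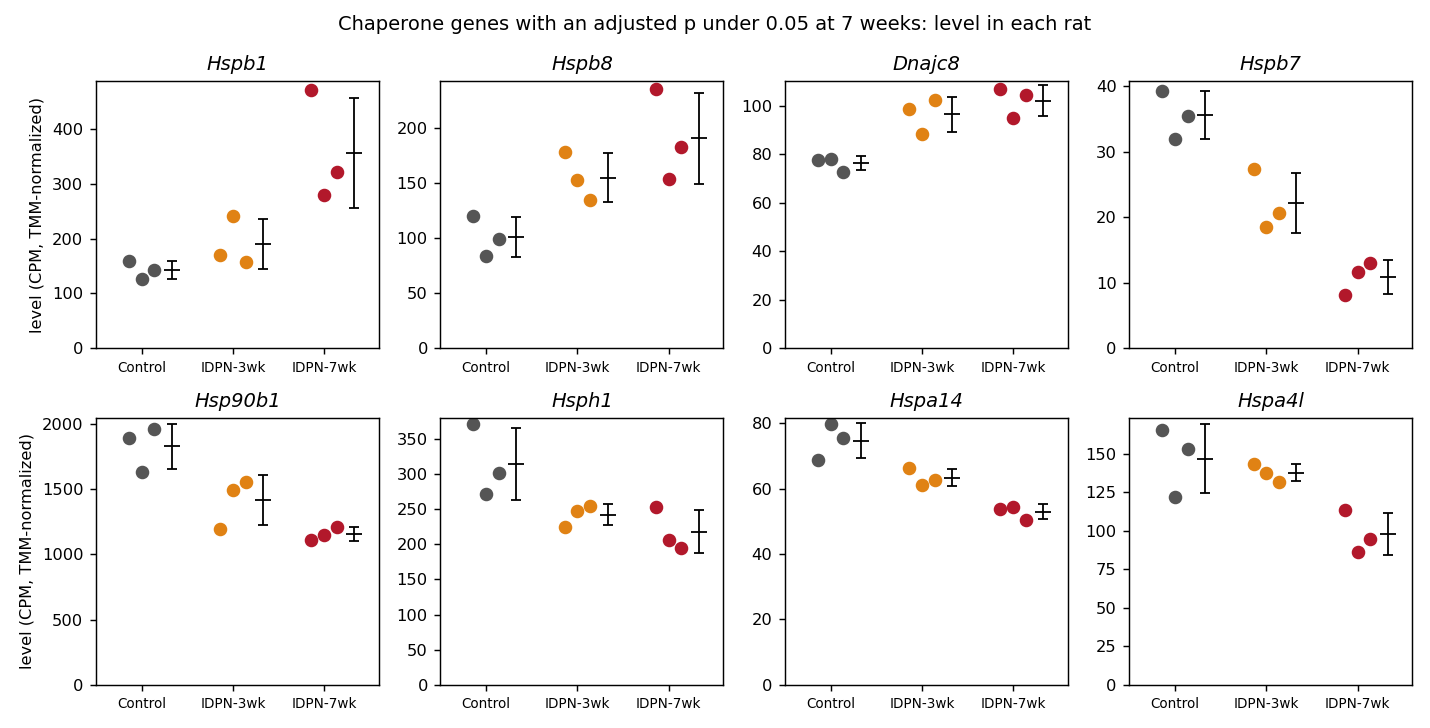
Level of the 8 chaperone genes with an adjusted p under 0.05 at 7 weeks, in CPM after TMM normalization. Each point is 1 rat of the Control, IDPN-3wk or IDPN-7wk group, bars show mean ± SD (n = 3), and the IDPN-7wk rats lie outside the range of the Control rats in each of the 8 genes.

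The small heat shock genes moved in opposite directions. Hspb1 (ENSRNOG00000023546) encodes HSP27, which holds unfolding proteins and binds actin filaments. Its level was 158, 126 and 143 CPM in the Control rats, 169.5, 242 and 158 in the IDPN-3wk rats, and 470.4, 279 and 321 in the IDPN-7wk rats. All IDPN-7wk rats were above all other rats, and the IDPN-3wk rats overlapped with Control. The log2 fold change was 1.33 ± 0.21 (SE) at 7 weeks, or 2.51-fold (adjusted p = 0.0055). At 3 weeks it was 0.41 ± 0.21 (adjusted p = 0.377, 95% interval -0.05 to 0.88). Between 7 and 3 weeks it was 0.91 ± 0.21 (adjusted p = 0.108).

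Hspb8 (ENSRNOG00000022392) encodes a small heat shock protein that works with Bag3 to send misfolded proteins to autophagy. Its level was 119.7, 83.9 and 98.6 CPM in Control, 178, 152 and 134 in IDPN-3wk, and 235, 154 and 182 in IDPN-7wk. Both exposed groups lay above Control and overlapped with each other. Its log2 fold change reached 0.62 ± 0.18 at 3 weeks (adjusted p = 0.128) and 0.92 ± 0.18 at 7 weeks (adjusted p = 0.0154), a 1.89-fold difference. The call at 7 weeks was lost without Control replicate 2 (log2 fold change 0.80, adjusted p = 0.0658), without Control replicate 3 (0.90, adjusted p = 0.056) and without IDPN-7wk replicate 1 (0.74, adjusted p = 0.0597). Bag3 itself was at 28.4 to 40.3 CPM in Control and 38.8 to 44.2 CPM in IDPN-7wk, with an adjusted p of 0.378 at 7 weeks.

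Hspb7 (ENSRNOG00000029079), known as a small heat shock gene of heart and skeletal muscle, went the other way. It was at 39.3, 31.9 and 35.5 CPM in Control, 27.4, 18.5 and 20.7 in IDPN-3wk, and 8.04, 11.7 and 13.0 in IDPN-7wk. The 3 groups did not overlap. On the log2 scale the change came to -0.68 ± 0.22 at 3 weeks (adjusted p = 0.17) and -1.71 ± 0.22 at 7 weeks (adjusted p = 0.00204), when the level was 3.26-fold lower. From 3 to 7 weeks it was -1.03 ± 0.22 (adjusted p = 0.0918). Over 10 muscle markers, of which 3 had enough counts to be tested and 0 were DEGs by edgeR the summed level was 12.7 to 18.8 CPM in Control, 19.0 to 26.9 in IDPN-3wk and 20.4 to 33.9 in IDPN-7wk, and the skeletal muscle markers Acta1, Ckm, Myl1 and Tnnt3 did not exceed 1.09 CPM in any library. DESeq2 called Des at 7 weeks and Myh11 between 7 and 3 weeks. In edgeR, the log2 fold change at 7 weeks was 1.89 for Des (adjusted p = 0.115) and -0.80 for Myh11 (adjusted p = 0.38), and that of Myh11 between 7 and 3 weeks was -1.67 (adjusted p = 0.163).

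Of the other small heat shock genes, Hspb6 did not pass the test in any comparison, with log2 fold changes of 0.27 and -0.13. Hspb2, a partner of Hspb3 in muscle, was low, at 3.26, 4.04 and 1.88 CPM in Control and 0.774, 1.29 and 1.16 CPM at 7 weeks. The IDPN-7wk rats were below Control, with a log2 fold change of -1.504 ± 0.62 (adjusted p = 0.225). It is named as the lowest value among the remaining genes, after its values were seen. The summed level of the small heat shock genes was 317 to 394 CPM in Control, 402 to 497 in IDPN-3wk and 525 to 771 in IDPN-7wk, without overlap. Hspb1 and Hspb8 made up most of this sum in each group.

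**Figure D2:**
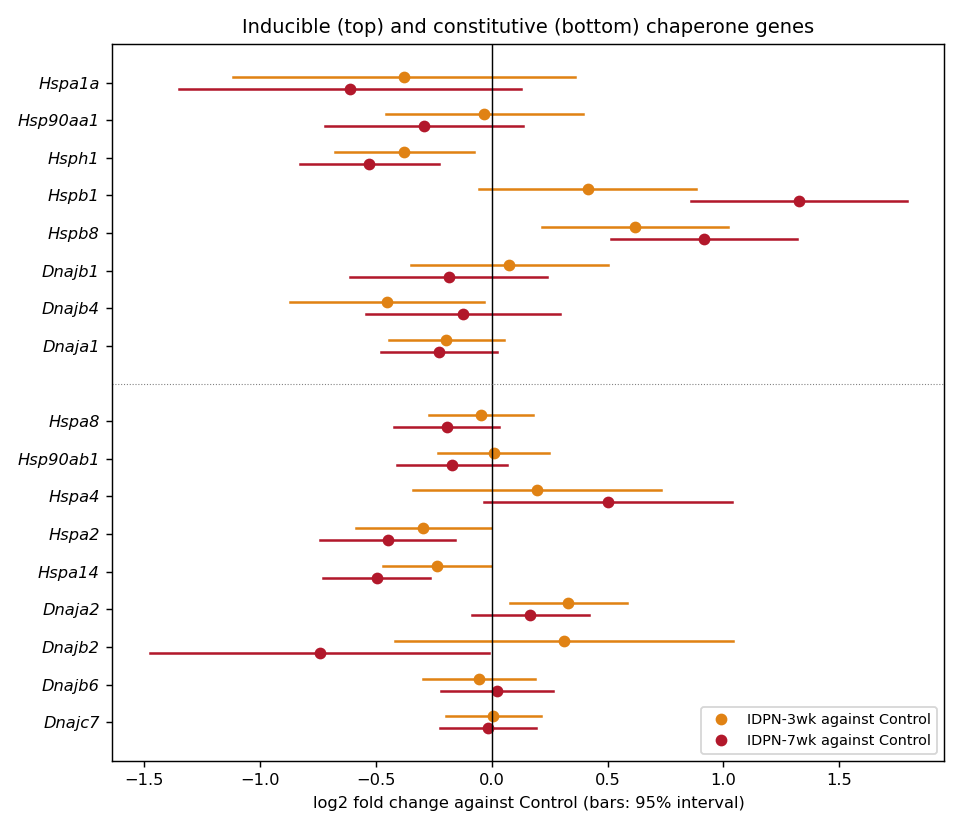
Log2 fold change of 8 inducible genes (above the dotted line) and 9 constitutive genes (below it) against Control at 3 weeks and at 7 weeks, from edgeR. Points are estimates and bars are 95% intervals. At 7 weeks 2 inducible genes (Hspb1 and Hspb8) lie well above zero, while the estimates of the other 6 lie below it. Of those 6, only Hsph1 has an interval that excludes zero.

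The inducible cytosolic genes other than Hspb1 and Hspb8 were not upregulated. Of the 8 inducible genes found, 6 were lower than Control at 7 weeks and 5 at 3 weeks, and the median log2 fold changes were -0.21 and -0.11. Hspa1a, the classical stress-induced HSP70, was at 118, 149.7 and 75.8 CPM in Control, 67.6, 132 and 64.1 in IDPN-3wk, and 53.5, 97.3 and 74.1 in IDPN-7wk. Its groups overlapped at both times. On the log2 scale it differed from Control by -0.38 ± 0.33 at 3 weeks (adjusted p = 0.637) and -0.61 ± 0.33 at 7 weeks (adjusted p = 0.364), with a 95% interval at 7 weeks of -1.35 to 0.13. The 3-week value differed between the sets of libraries. Each set holds few rats of a group, so this cannot be told apart from the spread between rats. Without the 3 libraries with fewer detected genes the 3-week value was -1.06. The difference in the mean log2 of CPM + 2 was -1.03 within the other 6 libraries and 0.31 within those 3. Hspa1a has a near-identical neighbour, Hspa1b, which was not analysed here, so the level of Hspa1a is uncertain.

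Hsp90aa1, the inducible cytosolic HSP90, was at 437, 398 and 421 CPM in Control, 385, 424 and 421 in IDPN-3wk, and 469, 241 and 318 in IDPN-7wk. The IDPN-7wk rats spread to both sides of the Control rats, and the log2 fold change was -0.29 ± 0.19 (adjusted p = 0.476, 95% interval -0.72 to 0.14). It was -0.58 without IDPN-7wk replicate 1, the highest of them (adjusted p = 0.0376, short of the fold threshold), and -0.09 without replicate 2. Dnajb1, the DnaJ partner of HSP70 in the heat shock response, was at 111 to 133 CPM in Control, 93.8 to 169.5 in IDPN-3wk and 96.8 to 117 in IDPN-7wk. Its 95% interval at 7 weeks ran from -0.61 to 0.24. Its highest value, in IDPN-3wk replicate 2, came from a rat that also had the second highest level of Hspa1a.

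Hsph1, an HSP110 protein that exchanges the nucleotide of HSP70, was the inducible gene with a lower level that passed the adjusted p at 7 weeks. Its level was 371, 271 and 302 CPM in Control, 225, 248 and 254 in IDPN-3wk, and 253, 206 and 195 in IDPN-7wk. Both exposed groups lay below Control. Its log2 fold change came to -0.38 ± 0.13 at 3 weeks (adjusted p = 0.205) and -0.53 ± 0.13 at 7 weeks (adjusted p = 0.0474), a 1.44-fold lower level that missed the fold threshold. Without Control replicate 2 it was -0.62 and without IDPN-7wk replicate 1 it was -0.65, and it was then a DEG. Over all 6 libraries left out in turn, its adjusted p ran from 0.0384 to 0.184.

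The remaining inducible genes are DnaJ genes. Dnaja1, a partner of Hspa8, had log2 fold changes of -0.20 at 3 weeks and -0.23 at 7 weeks (adjusted p = 0.437 and 0.309). Dnajb4, close in sequence to Dnajb1, was at 90.7 to 103 CPM in Control and 47.7 to 88.2 CPM in IDPN-3wk, without overlap, and its log2 fold change of -0.45 ± 0.19 did not pass the test (adjusted p = 0.28). Without the 3 libraries with fewer detected genes it was -0.16. At 7 weeks it overlapped with Control again.

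Of the 9 constitutive genes, 0 were DEGs at either time by edgeR or DESeq2, and their median stood at 0.01 at 3 weeks and at -0.17 at 7 weeks on the log2 scale, with 6 genes lower at 7 weeks. At unadjusted p under 0.05 there were 3 of the 9 at each time. Of all genes, 15.8% at 3 weeks and 19.3% at 7 weeks passed this, and 1.65% and 5.13% were DEGs by edgeR. Hspa8, the constitutive HSP70 (HSC70), was at 1839, 1532 and 1809 CPM in Control, 1783, 1652 and 1582 in IDPN-3wk, and 1678, 1461 and 1389 in IDPN-7wk. Hsp90ab1, the constitutive HSP90, had means of 3113 ± 187, 3131 ± 313 and 2766 ± 335 CPM (SD, n = 3). Both overlapped with Control at both times, and the 95% intervals of their log2 fold changes at 7 weeks were -0.42 to 0.03 and -0.41 to 0.07. Reads of these genes can match processed copies elsewhere, and RSEM divides such reads.

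Hspa14, an HSP70-like protein of the ribosome, was the constitutive gene that passed the adjusted p. Its level was 68.9, 79.9 and 75.5 CPM in Control, 66.3, 61.2 and 62.7 in IDPN-3wk, and 53.9, 54.6 and 50.4 in IDPN-7wk. The 3 groups did not overlap, and the log2 fold change was -0.24 ± 0.10 at 3 weeks (adjusted p = 0.307) and -0.50 ± 0.10 at 7 weeks (adjusted p = 0.0202). Its partner at the ribosome, Dnajc2, differed by 0.13 on the log2 scale at 7 weeks, with overlapping groups. Hspa2, an HSP70 best known from testis, differed by -0.45 ± 0.13 on the log2 scale at 7 weeks (adjusted p = 0.0799), with the IDPN-7wk rats below Control. Hspa4, an HSP110 protein related to Hsph1, had the opposite sign (0.50 ± 0.24, adjusted p = 0.293), with the IDPN-7wk rats above Control.

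The HSP110 family thus held values of both signs. Hspa4l, the remaining member, was at 165, 122 and 153 CPM in Control, 143, 137 and 132 in IDPN-3wk, and 113, 86.5 and 94.3 in IDPN-7wk. The IDPN-7wk rats were below all others. Its log2 fold change came to -0.10 ± 0.13 at 3 weeks (adjusted p = 0.794) and -0.58 ± 0.13 at 7 weeks (adjusted p = 0.0317), just under the fold threshold. It was a DEG without Control replicate 2 or without IDPN-7wk replicate 1 (-0.70 in each case).

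Dnajb2, a DnaJ protein enriched in neurons, had the widest spread of the constitutive genes and followed the split of the libraries. It was at 142 to 153 CPM in the 3 libraries with fewer detected genes and at 56.6 to 76.0 CPM in the other 6. Its log2 fold change between 7 and 3 weeks was -1.05 ± 0.33 (adjusted p = 0.208) over all libraries and -0.11 without those 3 libraries, and it was called without IDPN-3wk replicate 3 (-1.36, adjusted p = 0.0314). Dnaja2 (0.33 and 0.17 at 3 and 7 weeks), Dnajb6 (-0.06 and 0.02) and Dnajc7 (0.01 and -0.02) did not pass the test. Dnaja2 and Dnajc7 assist HSP70, and Dnajb6 holds back the aggregation of polyglutamine proteins.

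**Figure D3:**
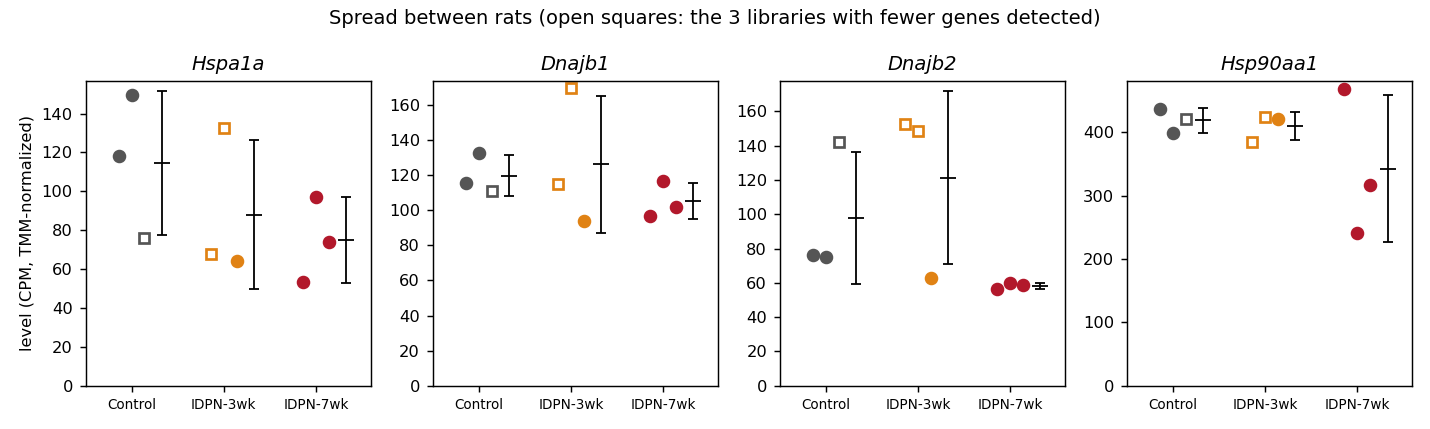
Level in CPM of Hspa1a, Dnajb1, Dnajb2 and Hsp90aa1 in each rat, with mean ± SD (n = 3) beside each group. Open squares are the 3 libraries with fewer detected genes, which hold the 3 highest values of Dnajb2 (142 to 153 CPM) but lie among the others for Hspa1a and Hsp90aa1.

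The SD of log2 CPM within groups, pooled over the 3 groups, had a median of 0.27 in the inducible genes and 0.14 in the constitutive genes, where that of all 66 was 0.22. The inducible genes ran from 0.14 (Dnaja1) to 0.51 (Hspa1a) and the constitutive genes from 0.08 (Hspa14) to 0.52 (Dnajb2), with Hspa4 at 0.37, so the classes overlapped. A small constant was added to each CPM before the log. These values are a description, and the difference between the classes was not tested.

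In the ER, Hsp90b1 (ENSRNOG00000026963, GRP94, the HSP90 of the ER) was downregulated. Its level was 1895, 1628 and 1958 CPM in Control, 1196, 1495 and 1555 in IDPN-3wk, and 1109, 1152 and 1213 in IDPN-7wk. Both exposed groups lay below Control. Against Control, the log2 fold change came to -0.37 ± 0.11 at 3 weeks (adjusted p = 0.141) and -0.66 ± 0.11 at 7 weeks (adjusted p = 0.00729), a 1.58-fold lower level. It was a DEG at 7 weeks whichever of the 6 libraries was left out.

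Of the 12 ER genes, 10 were lower at 7 weeks, with a median log2 fold change of -0.17, while at 3 weeks 6 were lower. The median of all 66 chaperone genes at 7 weeks was also -0.17. Dnajb9 and Dnajb11, cochaperones of the ER HSP70, had log2 fold changes of -0.52 ± 0.17 and -0.38 ± 0.12 at 7 weeks (adjusted p = 0.105 and 0.103), with the IDPN-7wk rats below Control in both. The exceptions were Dnajc10 and Dnajc16, at 0.15 and 0.34 (adjusted p = 0.501 and 0.327), with the IDPN-7wk rats above Control in both. The summed level of the ER genes was 2498 to 2954 CPM in Control, 2091 to 2522 in IDPN-3wk and 1985 to 2115 in IDPN-7wk, and most of it was Hsp90b1.

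Of the 9 mitochondrial genes, 0 were DEGs at either time by edgeR or DESeq2. At unadjusted p under 0.05 there were 2 at 3 weeks, Hspa9 and Dnajc30, and 0 at 7 weeks. The shares of all genes were 15.8% and 19.3% by this measure, and 1.65% and 5.13% for edgeR DEGs. Hspa9 (mortalin, the HSP70 of the matrix) was at 219.6, 201 and 187 CPM in Control, 242, 245 and 248 in IDPN-3wk, and 245, 215 and 217 in IDPN-7wk. The IDPN-3wk rats lay above Control, with a log2 fold change of 0.28 ± 0.09 (adjusted p = 0.17). Dnajc30, a DnaJ protein of the mitochondria, had log2 fold changes of 0.40 ± 0.17 at 3 weeks (adjusted p = 0.284) and -0.06 at 7 weeks, and the 3-week value was 0.15 without the 3 libraries with fewer detected genes. Hspd1, with the shared run of heat shock units, had 0.09 and 0.00, with 95% intervals of -0.14 to 0.33 and -0.24 to 0.24. Hspe1 was at 1.89 to 3.80 CPM, and its interval at 7 weeks was wide (-1.18 to 0.70). Hspd1 was at 194 to 243 CPM, and the cause of this gap was not tested, so the level of Hspe1 is uncertain.

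Among genes of the nucleus and of RNA, Dnajc8, which is associated with splicing, was higher. Its level was 77.9, 78.3 and 72.9 CPM in Control, 98.8, 88.6 and 103 in IDPN-3wk, and 107, 94.8 and 105 in IDPN-7wk. Both exposed groups lay above Control. On the log2 scale it differed by 0.34 ± 0.10 at 3 weeks (adjusted p = 0.126) and 0.42 ± 0.10 at 7 weeks (adjusted p = 0.0343), a 1.34-fold difference. The 4 genes of vesicle traffic that were tested, among them Dnajc5 of synaptic vesicles and Dnajc6 (auxilin) of clathrin coats, had log2 fold changes of -0.33 to 0.31 at 7 weeks, and none passed the test.

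**Figure D4:**
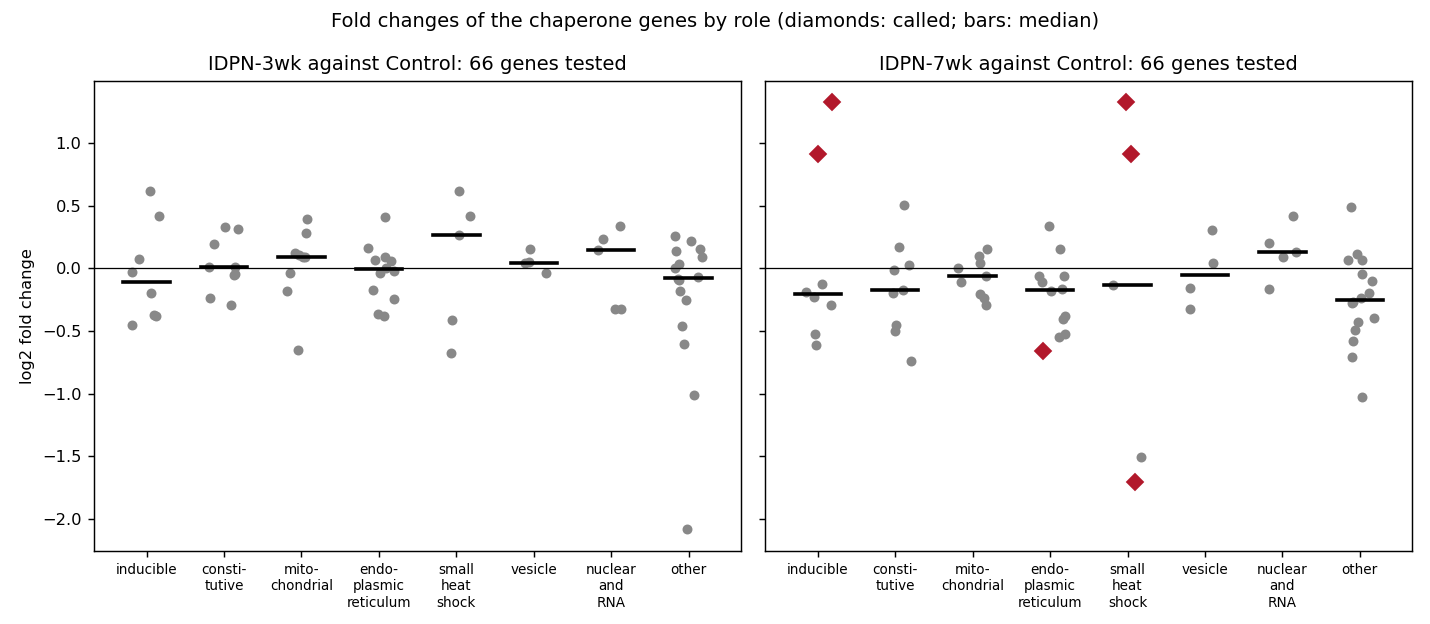
Log2 fold change of the 66 tested chaperone genes against Control at 3 weeks (left) and 7 weeks (right), grouped by role. Points are genes, red diamonds are DEGs and black bars are medians, Hspb1 and Hspb8 appear both as inducible and as small heat shock genes, and DEGs appear in the 7-week panel only.

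The other 41 tested chaperone genes had log2 fold changes of -2.08 (Dnajb7, with 94 counts in all and 2 IDPN-3wk libraries at 0) to 0.41 (Dnajb14) at 3 weeks, with 23 higher and 18 lower. At 7 weeks they ran from -1.504 (Hspb2) to 0.49 (Dnajc22), with 14 higher and 27 lower, and the smallest adjusted p was 0.173.

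Between 7 and 3 weeks, no chaperone gene was a DEG by edgeR (0 of 66), while 0.483% of all genes were (0.348% higher), and 8 had an unadjusted p under 0.05 (13.8% of all genes). DESeq2 called 4, with Hspb1 higher and Hspb7, Dnaja4 and Dnajb2 lower at 7 weeks, where it called 3.84% of all genes. The IDPN-7wk rats lay below the IDPN-3wk rats in 11 chaperone genes and above them in 2, against 8.93% and 12.1% of all genes. The median log2 fold change was -0.13, with 44 of 66 lower. That of the inducible genes was -0.09, and without the 3 libraries with fewer detected genes it was 0.08.

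Without the 3 libraries with fewer detected genes, 6 chaperone genes of 66 were DEGs at 7 weeks, with Dnaja4 and Hspb2 lower beside the 4 named above. In that fit 9.56% of all genes were DEGs, a share near that of the chaperone genes. It left 2 Control rats and 1 IDPN-3wk rat, so its 3-week values take the lone rat to vary like the other groups. At 3 weeks the log2 fold change was then 0.15 for Hspb1, 0.40 for Hspb8, -0.18 for Hsp90b1 and -0.40 for Dnajb1, and at 7 weeks it was 0.32 for Hspa4.

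Other genes of the chaperone system were followed from lists of non-members. Of 32 heat shock factors and cochaperones, 0 passed the adjusted p at 3 or 7 weeks or between them by edgeR. Over all genes, 1.88%, 6.09% and 0.503% did. At an unadjusted p under 0.05 there were 4, 8 and 4 of the 32, against 15.8%, 19.3% and 13.8% of all genes. DESeq2 called 0 of them at 3 and 7 weeks and 1, Bag1, between 7 and 3 weeks. Bag1 followed the split of the libraries, at 67.5 to 82.8 CPM in the 3 with fewer detected genes and 14.8 to 28.8 in the other 6. Its difference between 7 and 3 weeks in the mean log2 of CPM + 2 was -0.25 within the other 6. Their median log2 fold changes were 0.00, -0.02 and -0.05. Hsf1 itself was at 14.6 to 23.0 CPM in Control, 14.1 to 24.1 in IDPN-3wk and 24.3 to 25.1 in IDPN-7wk. Its log2 fold change at 7 weeks was 0.32 (adjusted p = 0.55), and its low values were those of the 3 libraries with fewer detected genes. Of the 8 subunits of the chaperonin TRiC, which folds actin and tubulin, 0 passed in any comparison by edgeR or DESeq2, with 2 at an unadjusted p under 0.05 at 3 weeks and 0 in the other comparisons.

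Markers of several cell types moved over the same groups. All 10 HC markers were lower at 7 weeks and 9 at 3 weeks. The 9 supporting cell markers summed to 13253 to 13634 CPM in Control, 7995 to 10240 in IDPN-3wk and 4997 to 7696 in IDPN-7wk, and the 7 Schwann cell markers, 2 of them shared with that list, to 9560 to 12022, 7696 to 10212 and 3258 to 6839 CPM. The 8 macrophage markers summed to 59.1 to 99.95 CPM in Control, 42.1 to 113 in IDPN-3wk and 178 to 227 in IDPN-7wk, and all 8 were higher at 7 weeks. The fibroblast markers summed to 647 to 705, 613 to 842 and 584 to 728 CPM in the same order, and the groups overlapped. The endothelial markers summed to 317 to 346, 354 to 395 and 266 to 427 CPM, with IDPN-3wk above Control and IDPN-7wk overlapping with it. The red blood cell markers, 4 symbols in 5 entries, summed to 225 to 275 CPM in Control, 318.5 to 403 in IDPN-3wk and 202 to 298 in IDPN-7wk. Genes of the mitochondrial genome took 4.71% to 5.48% of counts in Control, 4.43% to 4.91% in IDPN-3wk and 2.85% to 3.93% in IDPN-7wk. The part of these cell types and of the mitochondrial share in the levels of Hspb1, Hspb8, Hspb7 and Hsp90b1 was not tested.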

How the data were processed

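RNA of vestibular epithelium from 9 rats (3 per group) was sequenced by the study with SMARTseq2, which primes on poly(A) and amplifies by PCR, without molecular identifiers. The authors aligned reads to Rnor6.0 with STAR (2.5.3a) and estimated expression with RSEM (1.3.0), both versions from the submitters' processing notes. The deposited values are expected counts per gene, given as whole numbers without normalization. Strand is not given in the sources used here, so overlapping antisense genes cannot be separated.

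Groups came from the labels, and replicate numbers only name rats. Genes were filtered with filterByExpr, normalized by TMM and tested with edgeR (4.0.16, robust quasi-likelihood, R 4.3.3) in 1 fit of all 9 libraries, with Benjamini-Hochberg adjustment and the study's thresholds. DESeq2 (1.42.0) was an alternative. The study itself tested with DESeq2, in another version, and reported more DEGs at both times than either method gave here. A level of 3 counts corresponded to 0.0611 to 0.101 CPM, and this covers counting error only. Scripts were tested on simulated counts. The members and lists were chosen with earlier results of these data known. Genes named were all inducible and constitutive members, those with an adjusted p under 0.05 and the 10 smallest p-values in each comparison with Control. Others, such as Hspb2, Hspd1, Hsf1 and Bag3, were added after their values were seen.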

Additional observations from a re-analysis of the deposited data

How the results depend on the processing

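At 7 weeks, Hspb1, Hspb7 and Hsp90b1 were DEGs whichever library was left out, and over all alternatives their log2 fold changes ran from 1.08 to 1.48, -1.85 to -1.53 and -0.73 to -0.61. Hspb8 ran from 0.74 to 1.06 (adjusted p 8.58e-05 to 0.0658). The adjusted p ran from 2.21e-05 to 0.102 for Hspa14, from 6e-04 to 0.135 for Dnajc8, from 0.0057 to 0.184 for Hsph1 and from 0.00174 to 0.126 for Hspa4l. Among chaperone genes, DESeq2 called 1 at 3 weeks and 4 between 7 and 3 weeks, where edgeR called 0. Over all genes, DESeq2 called 826 at 3 weeks, 1392 at 7 weeks and 585 between them, where edgeR called 256, 796 and 75, and the cause was not tested. With no fold threshold 8 chaperone genes passed at 7 weeks, and with a threshold of 2 only 2 did, by construction. Leaving out 1 library gave 3 to 5 at 7 weeks and 0 to 1 between 7 and 3 weeks, while the DEGs among all genes ran from 75 to 439 at 3 weeks, 432 to 600 at 7 weeks and 39 to 445 between them, so the shares of all genes set beside the chaperones moved as well.

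Without the 3 libraries with fewer detected genes, chosen after seeing the data, the median log2 fold change of the constitutive genes was -0.13 at 7 weeks and -0.11 between 7 and 3 weeks, and that of the inducible genes between them was 0.077. Leaving out 1 library in turn, the medians ran from -0.034 to 0.027 (constitutive, 3 weeks), -0.27 to -0.12 (constitutive, 7 weeks), -0.19 to -0.11 (all, 7 weeks), -0.11 to 0.062 (inducible, 7 against 3 weeks) and -0.23 to -0.11 (constitutive, 7 against 3 weeks). The signs that turned belonged to 17 results, none with an adjusted p under 0.05. With the library set as a covariate, the turned values were -0.020 (Dnajb1), -0.0042 (Hsp90ab1) and -0.088 (Dnajb2) at 3 weeks, -0.023 (Dnajb6) at 7 weeks, and -0.013 (Dnajb6) and 0.016 (Dnajb11) between 7 and 3 weeks. Without the 3 libraries they were 0.013 (Hsp90aa1), -0.40 (Dnajb1), 0.0035 (Dnajb6) and -0.26 (Dnajb2) at 3 weeks, -0.023 (Dnajb6) at 7 weeks, and -0.0051 (Dnajb4), 0.16 (Dnajb1), 0.22 (Hspa1a), -0.026 (Dnajb6) and -0.011 (Dnajc8) between them. Leaving out 1 library gave -0.066 to 0.012 (Hsp90aa1), -0.20 to 0.25 (Dnajb1), -0.13 to 0.0017 (Hspa8), -0.055 to 0.085 (Hsp90ab1) and -0.072 to 0.052 (Dnajc7) at 3 weeks, -0.019 to 0.085 (Dnajb6) and -0.055 to 0.021 (Dnajc7) at 7 weeks, and -0.11 to 0.032 (Dnaja1), -0.43 to 0.011 (Dnajb1), -0.46 to 0.19 (Hspa1a) and -0.069 to 0.056 (Dnajc7) between them. The cause was not tested. The planned sum of Hspa1a and Hspa1b was not run, since Hspa1b was not analysed here. No paired analysis was possible because the labels give no replicate numbers and the groups share too few animal codes. The sample titles carry an animal code whose first part is the same in all 3 Control rats and in no exposed rat, and 1 IDPN-3wk and 1 IDPN-7wk rat share theirs. The remaining rats of each exposed group share theirs within the group. What the first part stands for is not given in the sources used here, and it cannot be told apart from the Control group. The tests took the rats as independent. The fewest counts in all were those of Hspb9 (20), Dnajb7 (94) and Hspa1l (420).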

Other observations

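Immediate early genes, which many stimuli switch on within minutes, were followed as a list of 16 beside the chaperones. At 7 weeks, 12 of 16 were higher than Control and 3 were DEGs (Fos with a log2 fold change of 2.34, Atf3 with 1.29 and Junb with 1.03, with edgeR adjusted p = 0.00373, 0.029 and 0.0202). Their summed level was 580 to 641 CPM in Control, 572 to 652 in IDPN-3wk and 664 to 862 in IDPN-7wk. At 3 weeks 0 were DEGs by edgeR, 4 had an unadjusted p under 0.05, and DESeq2 called 1, Fos. Of all genes, 5.13% were DEGs by edgeR at 7 weeks (2.00% upregulated) and 1.65% at 3 weeks. At 3 weeks, 15.8% of all genes had an unadjusted p under 0.05 and DESeq2 called 5.18%. The part of the immediate early genes in the levels of the chaperones was not tested.

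The 3 libraries with fewer detected genes lay outside the other 6 in 7 of 66 chaperone genes (10.6%), against 10.3% of all genes. They were above in Dnajb2, Dnajc13, Dnajc15, Dnajc27 and Hspa13 and below in Dnajc7 and Dnajc10. Within the other 6 libraries, levels were compared as the mean log2 of CPM + 2. The difference between IDPN-7wk and Control was 1.29 for Hspb1, 0.89 for Hspb8, -1.56 for Hspb7 and -0.60 for Hsp90b1, and it was -0.36 for Dnajb2. The added 2 shrinks differences at low levels such as those of Hspb7, so these values are not on the scale of the fitted fold changes.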
